A study of Mus musculus with 8 samples.

Results

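The natriuretic peptide system of the embryonic mouse heart was described from 7 genes: the peptide genes Nppa, Nppb and Nppc, the receptor genes Npr1, Npr2 and Npr3, and the protease gene Corin. They were taken by symbol from the 49315 genes of the count table, where each symbol matched 1 identifier. Of the 7, 6 passed the filter on low counts that 16377 of all genes passed, and Nppc did not. The hearts came from C57BL/6 embryos at embryonic day 9.5, with no other treatment or allele named, and gave 4 female and 4 male libraries. Per the labels' protocols, sex was read by genotyping Sry in tissue other than the heart. Pooling of hearts and the litters of origin are not named in the labels, and p-values therefore cover only the spread among these 8 libraries, which may be technical.

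Natriuretic peptides act through cyclic GMP, and the atrial and brain peptides are hormones of the heart muscle. Nppa encodes atrial natriuretic peptide and Nppb encodes brain natriuretic peptide, which both bind the receptor guanylyl cyclase made from Npr1. Nppc encodes C-type natriuretic peptide, the ligand of the related cyclase made from Npr2, and Npr3 encodes the clearance receptor, which takes up all 3 peptides and has no cyclase domain. Corin is a membrane protease of heart muscle that cuts the precursor of atrial natriuretic peptide. In the embryo Nppa is a classical marker of the working muscle of the forming chambers, and it stays low in the atrioventricular canal and outflow tract.

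Nppa and Nppb lie side by side on chromosome 4 of GRCm38, with 13516 bases between them, and both are read from the plus strand. Nppb spans 147985788 to 147987205 and Nppa spans 148000722 to 148002079, each with 3 exons. Nppc lies on chromosome 1 (86666291 to 86670571), Npr1 on chromosome 3 (90450591 to 90465866), Npr2 on chromosome 4 (43631935 to 43651244), Npr3 on chromosome 15 (11839896 to 11905674) and Corin on chromosome 5 (72300025 to 72504473). The promoter of Nppa is printed because several heart factors are known to act on it, and the letters of their core sites were searched on both strands in the 250 bases before the RefSeq start (GRCm38.p6). Capitals mark TCACAC (a T-box site), AAGTG (the core of the Nkx2-5 element), GATA, whose reverse is TATC, and TATAAA.
Nppa promoter, chr4:148000472-148000721, plus strand: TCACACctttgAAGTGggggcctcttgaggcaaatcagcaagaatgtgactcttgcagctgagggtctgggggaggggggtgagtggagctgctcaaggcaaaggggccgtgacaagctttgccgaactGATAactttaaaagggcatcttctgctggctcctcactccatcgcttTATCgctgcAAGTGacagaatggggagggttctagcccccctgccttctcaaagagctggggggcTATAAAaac
Nppb promoter, the stretch with its GGAATG (a Tead element) and GATA matches, chr4:147985795-147985820, plus strand: GGAATGcagctGATAaatcagaGATA
No 2 of these matches overlap. The Nppa promoter held 2 matches to GATA, 2 to AAGTG, 1 to TCACAC and 1 to TATAAA, and none to GGAATG. The Nppb promoter held 2 matches to GATA, 1 to GGAATG and 1 to TATAAA, and none to AAGTG or TCACAC. The stretch shown lies 80 to 105 bases before the RefSeq start and within the first exon of the longer gene model in the deposited tables.

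Such short motifs are common. Over 32851 promoter windows of the same length, 53.6% held GATA, 40.7% AAGTG, 12.3% TCACAC, 12.6% GGAATG and 12.4% TATAAA. The CArG box of the serum response factor Srf, in its exact form, was in 1.47% of windows and in none of the 7 members' promoters. Forms of it with a mismatch were not searched, so a site for Srf is not excluded. Apart from 1 TATAAA match in the promoter of Nppc, the promoters of Nppc, Npr1, Npr2, Npr3 and Corin held no match to any of the motifs. G and C made up 70.4% of the promoter of Npr1, 69.2% of that of Nppc and 64.4% of that of Npr2. The share was 54.8% for Nppb, 54.4% for Nppa, 51.2% for Corin and 38.8% for Npr3, with a median of 52.4% over all windows. A match is a description of the letters and does not show that a factor was bound.

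Total counts ran from 20105913 to 51134291 per library, and values are given as CPM, counts scaled to a common library total with TMM factors. Of 14 cardiomyocyte markers all were tested, with a summed level of 42168 to 54346 CPM in female libraries and 46058 to 74329 CPM in male libraries, and 12 endocardial and endothelial markers summed to 975 to 1088 and 1077 to 1119 CPM. Libraries also held RNA of other cells. Erythroid genes summed to 4315 to 11335 CPM in females and 5779 to 9052 CPM in males, epicardial genes to 64.7 to 98.3 and 62.9 to 119 CPM, and neural crest genes to 77.3 to 99.4 and 75.2 to 98.5 CPM. The first principal component held 54.6% of the variance of log2 CPM and set Male replicate 2 at one end (-71.6) and Female replicate 4 at the other (45.0). The 11 foregut markers and the 5 of 7 hepatic markers that were tested were taken to mark tissue next to the heart, which was not checked gene by gene. Their mean log2 CPM was highest in Female replicate 1 and Male replicate 2. There it exceeded the 8-library mean by 1.81 and 1.17 (foregut) and by 3.02 and 1.94 (hepatic). None of these marker genes was called between the sexes. In males 12 cardiomyocyte genes had higher and 2 lower values, against 7 and 5 endothelial, 5 and 1 epicardial, 4 and 3 erythroid, 1 and 10 foregut, 1 and 4 hepatic and 2 and 3 neural crest genes. Over all 16377 genes tested, 8666 had a higher value in males. Genes of a list are not independent, and 9 of the 14 cardiomyocyte genes had an r under -0.7 with Nppb, against 24.8% of all genes tested. Alb, Hnf4a and Foxd3, named after their values were seen, did not pass the filter, and no marker was at 0 in all libraries. In bulk tissue, fewer cells of a type and less RNA per cell cannot be told apart.

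Among the peptide genes Nppa was the most abundant. Its level was 431, 551, 578 and 568 CPM in the female libraries, in replicate order, and 546, 758, 656 and 635 CPM in the male ones. The lowest value was Female replicate 1 and the highest was Male replicate 2, and the sexes overlapped, since Male replicate 1 lay below 3 of the female libraries. Females averaged 532 ± 68.5 CPM, and males averaged 649 ± 87.1 CPM (SD, n = 4 libraries a sex). The log2 fold change, male minus female, was 0.29 ± 0.14 (SE). In edgeR its adjusted p was 0.9995, from an unadjusted p of 0.0642, and Nppa did not pass. Without Female replicate 1 and Male replicate 2 the log2 fold change was 0.11.

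The read count of Nppa has a limit of its own. Of its 865 exon bases, 532 are shared with Gm13054, an antisense gene annotated on the opposite strand (chromosome 4, 148001091 to 148004014). Whether the libraries kept strand, and how reads over both genes were assigned, was not given in the sources used here. Gm13054 had 6.32 to 13.8 CPM, and Nppa had 54.9 to 104 times as many counts in the same library. Without strand, reads of the pair over the shared bases cannot be told apart.

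Nppb was lower than Nppa and varied more. Its level was 57.7, 65.5, 59.2 and 101 CPM in the female libraries, in replicate order, and 74.1, 26.0, 79.3 and 73.5 CPM in the male ones. Male replicate 2 lay far below the other 7 libraries, and Female replicate 4 was the highest. Females averaged 71.0 ± 20.6 CPM, and males averaged 63.2 ± 25.0 CPM (SD, n = 4 libraries a sex). The log2 fold change was -0.17 ± 0.33 (SE, adjusted p = 0.9995 in edgeR). The difference changed sign without Male replicate 2 (0.088 on the log2 scale) and without Female replicate 4 (0.056). The coefficient of variation over the 8 libraries was 32.2% for Nppb and 16.2% for Nppa.

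Nppc was at or near 0. It had 1, 0, 0 and 4 counts in the female libraries, in replicate order, and 0, 3, 0 and 0 counts in the male ones, 8 counts in all. The 5 libraries with a count of 0 allow a level of up to 0.0604 to 0.152 CPM, at 3 counts per library, which covers counting error only. C-type natriuretic peptide RNA was therefore not detectable at this depth in those libraries, and no comparison of the sexes was made for it.

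**Figure D1:**
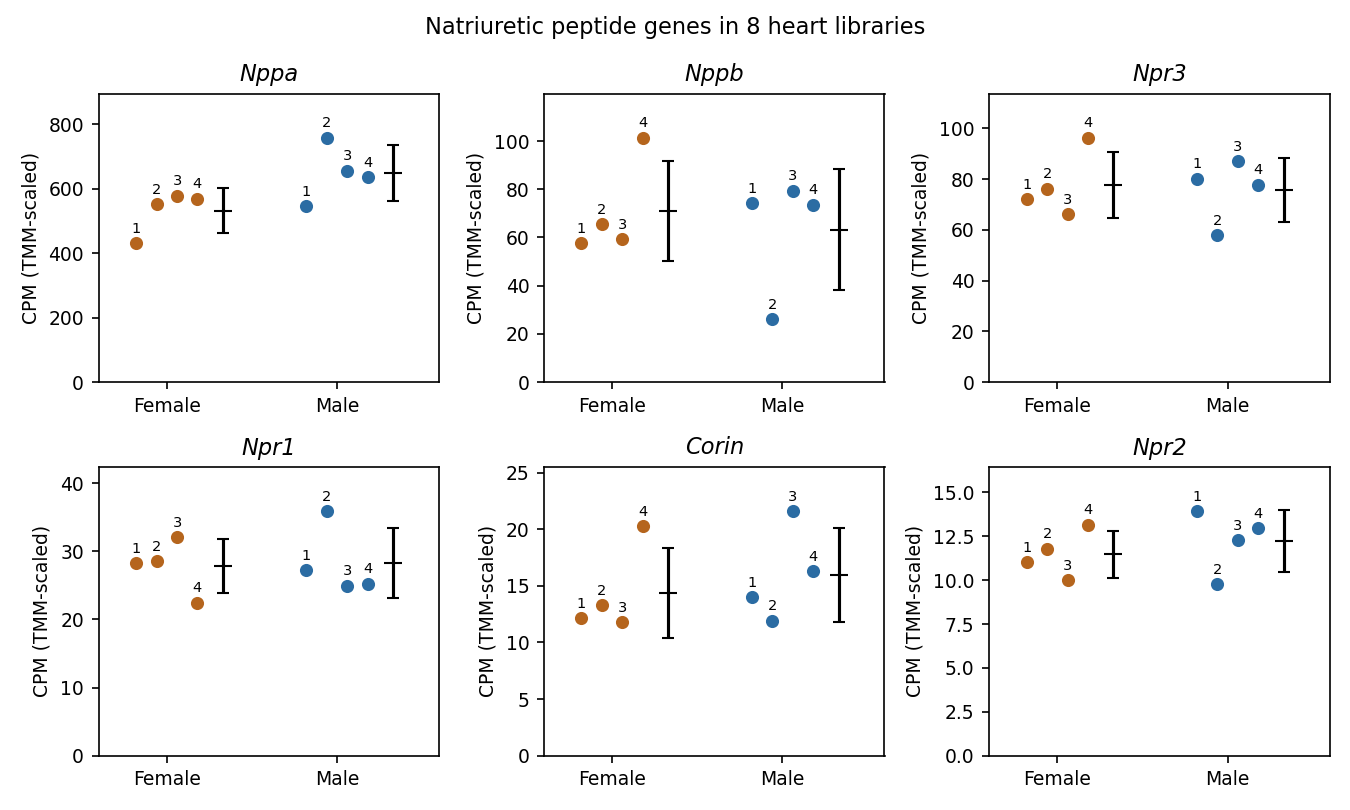
Points are the 8 libraries, numbered by replicate and split by sex, for 6 genes; the vertical axes are TMM-scaled CPM from 0, and bars beside the points are the mean and SD of 4 libraries. Male and female points overlap for each gene, and Nppb in Male replicate 2 (26.0 CPM) lies below the other 7 libraries.

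The clearance receptor gene Npr3 gave the most reads of the receptors. It stood at 72.1, 76.2, 66.3 and 96.4 CPM in the female libraries, in replicate order, and at 80.2, 58.0, 87.1 and 77.8 CPM in the male ones. As for Nppb, Female replicate 4 was highest and Male replicate 2 lowest, and the sexes overlapped. The log2 fold change was -0.04 ± 0.15 (SE, adjusted p = 0.9995 in edgeR). It was 0.067 without Male replicate 2 and 0.082 without Female replicate 4.

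Npr1, the cyclase receptor of the atrial and brain peptides, was ordered the other way. It stood at 28.3, 28.6, 32.1 and 22.5 CPM in the female libraries, in replicate order, and at 27.2, 35.9, 24.9 and 25.2 CPM in the male ones. Here Male replicate 2 was highest and Female replicate 4 lowest. The log2 fold change was 0.03 ± 0.15 (SE, adjusted p = 0.9995 in edgeR). It was -0.11 without Male replicate 2, -0.063 without Female replicate 4 and -0.016 when scaled by library size alone. Of its 4783 exon bases, 559 are shared with the antisense gene Gm16048, which had 20 counts at most in a library.

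Npr2, the receptor of C-type natriuretic peptide, was present although its ligand gene was not detectable in most libraries. Its level was 11.03, 11.8, 9.98 and 13.2 CPM in the female libraries, in replicate order, and 13.9, 9.76, 12.3 and 12.98 CPM in the male ones. The libraries lay close together, with a coefficient of variation of 12.8%, and the sexes overlapped. The log2 fold change was 0.09 ± 0.14 (SE, adjusted p = 0.9995 in edgeR). Of its 4667 exon bases, 266 are shared with the antisense gene Gm12473, which had 9 counts at most in a library.

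Corin, the protease that activates atrial natriuretic peptide, stood at 12.1, 13.3, 11.8 and 20.2 CPM in the female libraries, in replicate order, and at 14.01, 11.9, 21.6 and 16.3 CPM in the male ones. Male replicate 3 and Female replicate 4 were high, and the other 6 libraries lay between 11.8 and 16.3 CPM. The log2 fold change was 0.14 ± 0.22 (SE, adjusted p = 0.9995 in edgeR). It was 0.36 without Female replicate 4 and -0.034 without Male replicate 3. The antisense gene Gm20647, which shares 147 of the exon bases of Corin, had 1 count at most in a library.

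None of the 6 members tested was called between the sexes. Over all genes tested the same test called 6 of 16377, or 0.0366%. At an unadjusted p below 0.05 edgeR gave no member and 367 of all genes. DESeq2 also called no member after adjustment and gave 1 member, Nppa, at an unadjusted p below 0.05 (0.04997), as it did 578 of the 29917 genes it tested. In edgeR without Male replicate 1 the unadjusted p of Nppa was 0.0313 (adjusted p = 0.927). No member had female and male libraries that did not overlap in CPM, a pattern seen in 2.25% of all genes tested. Over 17 alternatives the log2 fold change of Nppa stayed above 0 (0.11 to 0.36), as did that of Npr2 (0.019 to 0.18), and those of Nppb, Npr1, Npr3 and Corin took both signs.

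Levels of different genes were compared per kb of exon. Nppa led with 683 ± 111 CPM per kb, followed by Nppb with 85.9 ± 27.6, Npr3 with 11.1 ± 1.72, Npr1 with 5.87 ± 0.89, Corin with 2.81 ± 0.72 and Npr2 with 2.54 ± 0.32 (SD, n = 8 each). Nppa was 8.33-fold above Nppb and Nppb 7.38-fold above Npr3, as geometric means of the 8 ratios. Npr3 was 1.89-fold above Npr1, and Npr1 2.13-fold above Corin. Each of these 4 steps went the same way in 8 of 8 libraries, with an exact sign-flip permutation p of 0.00781, the smallest the 8 libraries allow, and an adjusted p of 0.00977 over 5 steps. The order was taken from the means of these same 8 libraries. The p-values therefore describe how steady each step was and are no independent test of the order. Corin and Npr2 did not differ beyond their spread, with a 1.08-fold difference, Corin higher in 5 of 8 libraries and an exact permutation p of 0.312. Length decided 2 of the steps. In CPM without length, Nppb was lower than Npr3 by a mean log2 difference of -0.26 (exact permutation adjusted p = 0.0156), and Corin was higher than Npr2 by 0.33 (exact permutation adjusted p = 0.00977).

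The level of Nppa per kb depends on what was counted over the bases it shares with Gm13054. Had no read over shared bases been counted, its whole CPM would fall on 333 exon bases, which gives 1773 CPM per kb in place of 683. Which of these applies is not known, and with the lengths of all members reduced in this way the order was the same. This alternative was chosen after the overlap was seen. By mean CPM Nppa ranked 237 among the 16377 genes tested, Npr3 2607 and Nppb 2941.

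**Figure D2:**
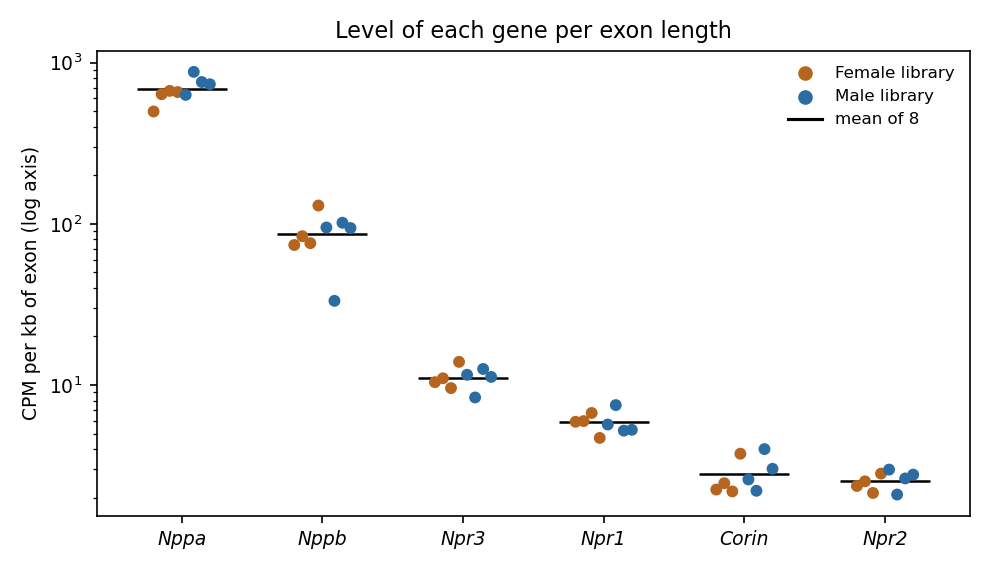
Each point is 1 library (female and male in separate colours) and each line the mean of 8 libraries; the vertical axis is CPM per kb of exon on a log scale. Nppa (683) and Nppb (85.9) stand above the receptor genes, and the points of Corin and Npr2 overlap.

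The ratio of Nppa to Nppb, in which the scaling of a library cancels, was similar in 7 libraries and far from them in 1. It was 7.46, 8.42, 9.75 and 5.60 in the female libraries, in replicate order, and 7.36, 29.2, 8.27 and 8.64 in the male ones, as a ratio of counts. Without Male replicate 2 the 7 libraries had a mean of 7.93 ± 1.3 (SD), and Male replicate 2 lay above them all. The mean log2 ratio was 2.94 in females and 3.48 in males, a difference of 0.54 with an exact 2-sided permutation p of 0.429 (the smallest possible p is 0.0286). The sexes were therefore not told apart by this ratio. Without Male replicate 2 the males had a mean of 8.09 ± 0.66 (SD, n = 3), against 7.81 ± 1.75 in the 4 females.

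In Male replicate 2 both genes moved, in opposite directions. Nppb was at 26.0 CPM against 73.0 ± 14.9 CPM in the other 7 libraries (SD), a log2 difference of -1.46, or 2.76-fold lower on the log2 scale. Of all genes tested, 1.12% had a lower value than this in the same comparison of 1 library with 7. Nppa was at 758 CPM against 566 ± 73.0 CPM, a log2 difference of 0.43, and 23.7% of all genes were higher still. On the log2 scale Nppb was displaced further than Nppa.

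Of the tested genes around the pair, 2 were lower in Male replicate 2, by less than Nppb, and 2 were higher, 1 of which overlaps Nppa. The uncharacterised 2510039O18Rik differed by -0.30 from the mean of the other 7 libraries on the log2 scale (SD of those 7, 0.15), and the chloride transporter gene Clcn6 by -0.23 (SD 0.11). Over the 8 libraries their r with Nppb was 0.83 and 0.79, given as a description. Plod1, a collagen lysyl hydroxylase, differed by 0.12 (SD 0.14). The antisense gene Gm13054, which shares 532 exon bases with Nppa, differed by 0.82 (SD 0.22), in the direction of Nppa. Whether reads of Nppa were counted for it is not known, so it is not a separate neighbour. The number of genes shown on each side was chosen after the values were seen.

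**Figure D3:**
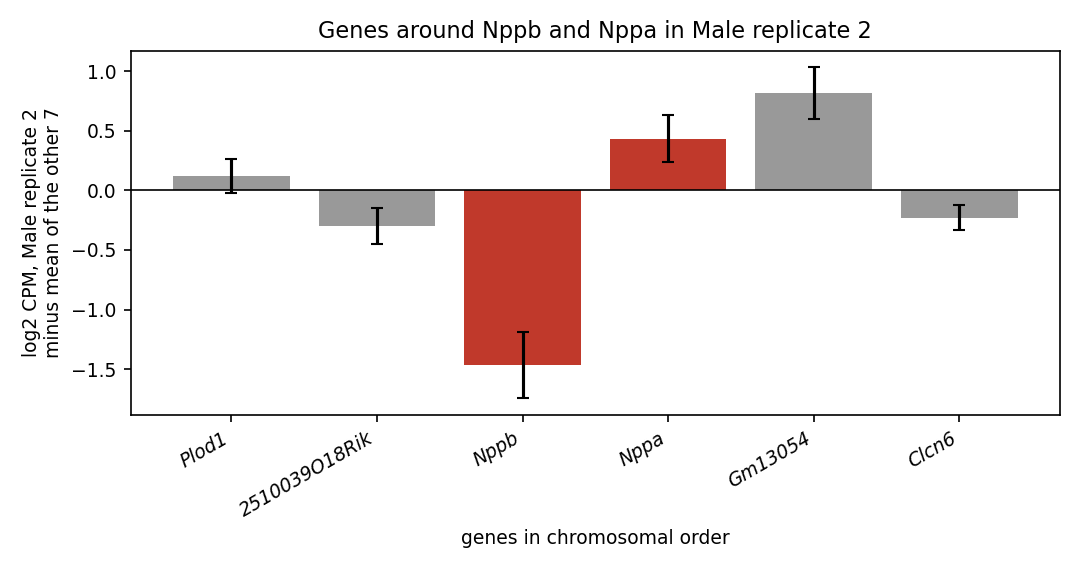
Bars are the log2 CPM of Male replicate 2 minus the mean of the other 7 libraries for genes in their order on chromosome 4; error bars are the SD of those 7 libraries, and there is no replicate of Male replicate 2. Nppb (-1.46) falls and Nppa (0.43) and Gm13054 (0.82), which overlaps Nppa, rise, while the other 3 genes lie between -0.30 and 0.12.

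Male replicate 2 lay at the end of several other measures as well. Its mean of the cardiomyocyte list was highest, exceeding the 8-library mean log2 CPM by 0.46. Within that list Actc1 (11070 CPM against an 8-library mean of 11552), Smyd1 (449 against 505) and Ryr2 (127 against 135) were below their means. The other genes of the list were highest in Male replicate 2. The mitochondrial share of counts was lowest in this library, 0.707% against up to 1.72%. Genes with less than 1500 exon bases had a median log2 deviation of 0.38 in it, and genes with over 5000 bases -0.10. Nppb, with 781 exon bases, went against this trend and Nppa, with 865, went with it. Female replicate 4 lay at the other end, with the highest mitochondrial share and medians of -0.29 for the short genes and 0.09 for the long ones. In Male replicate 2 the 11 foregut genes, all of them detected, summed to 549 CPM, the highest of the 8 libraries. Females ran from 234 to 448 CPM and males began at 225 CPM. The keratin genes Krt8 (311 CPM) and Krt18 (196 CPM) made up most of that sum. Of the rest of the list only Pax9 was highest in Male replicate 2, and the mean log2 CPM of the list was highest in Female replicate 1. Hepatic genes summed to 31.8 CPM in Male replicate 2, within a range of 2.07 to 72.6 CPM over all libraries. Female replicate 1, the other library high in both lists, had Nppb at 57.7 CPM and a ratio of 7.46. The part of these differences in the low Nppb was not tested.

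**Figure D4:**
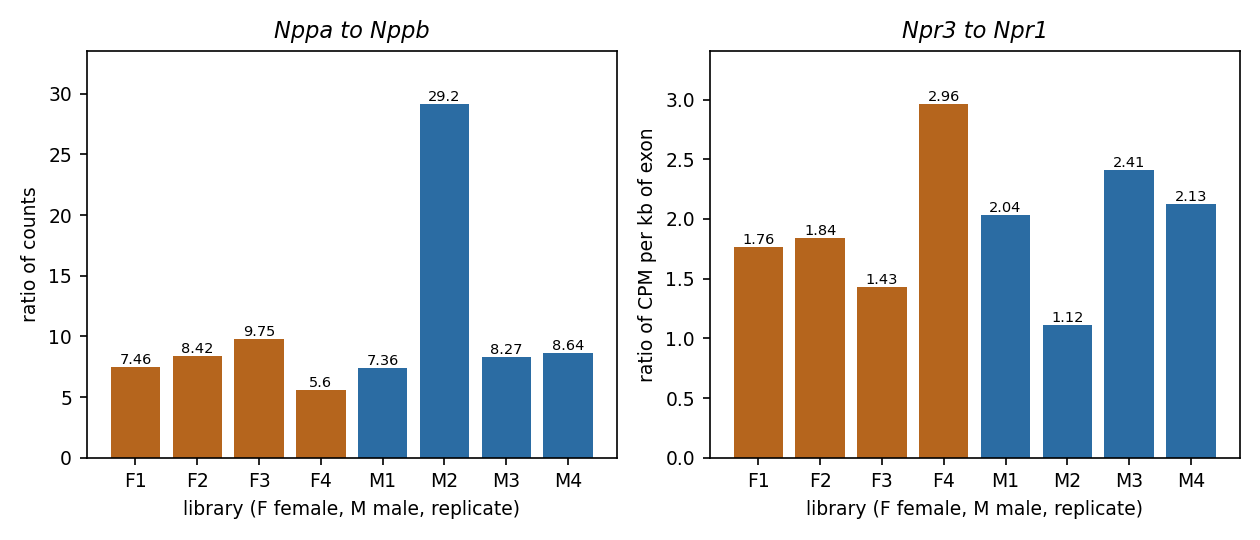
The left bars are the ratio of Nppa to Nppb counts in each library (F female, M male, with the replicate number), and the right bars the ratio of Npr3 to Npr1 in CPM per kb of exon; both axes start at 0. Male replicate 2 is highest on the left (29.2) and lowest on the right (1.12).

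The balance of clearance receptor to cyclase receptor also ran from library to library. The ratio of Npr3 to Npr1 per kb of exon was 1.76, 1.84, 1.43 and 2.96 in the female libraries, in replicate order, and 2.04, 1.12, 2.41 and 2.13 in the male ones. It was above 1 in all 8 libraries, with Female replicate 4 highest and Male replicate 2 lowest. Npr2 reached 0.279 to 0.601 of Npr1 per kb. These ratios are given without a test.

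Over the 8 libraries as one set, Npr3 varied with Nppb, Npr2 and Corin, Npr1 varied against these 4, and Nppa passed with none of them in log2 CPM. Of 15 pairs among the 6 members, 8 had a correlation of log2 CPM that passed after adjustment (exact permutation over all pairings, Pearson), and 9 passed with Spearman's rho. Nppb and Npr3 rose and fell together (r = 0.93, exact permutation p = 7.44e-05, adjusted p = 0.00112; rho = 0.98, exact p = 0.000397, adjusted p = 0.00595). Their r was 0.95 without Male replicate 2 (adjusted p = 0.00893 by the exact permutation test). It was 0.91 without the 2 libraries farthest from the median of Nppb, Male replicate 2 and Female replicate 4.

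Relative to the mean of the cardiomyocyte list, the r of Npr1 was 0.15 with Npr3, 0.16 with Nppb, 0.051 with Npr2 and -0.056 with Corin. That scale subtracts the same value from all genes of a library, which can raise r by itself. In log2 CPM Npr1 ran against these genes. Its r with Npr3 was -0.97 (exact permutation p = 0.000372, adjusted p = 0.00186; rho = -0.95, exact p = 0.00114, adjusted p = 0.00837) and with Nppb -0.91 (exact permutation p = 0.000372, adjusted p = 0.00186; rho = -0.90, exact p = 0.00456, adjusted p = 0.0137). These were -0.94 and -0.91 without Male replicate 2, and -0.89 and -0.83 without the 2 farthest libraries. Npr1 also ran against Corin (r = -0.84, exact permutation p = 0.00779, adjusted p = 0.0161; rho = -0.93, exact p = 0.00223, adjusted p = 0.00837) and Npr2 (r = -0.84, exact permutation p = 0.00801, adjusted p = 0.0161; rho = -0.81, exact p = 0.0218, adjusted p = 0.0363). Without the 2 farthest libraries these were -0.85 and -0.76. Without Male replicate 2 the pair of Npr1 and Npr2 no longer passed (r = -0.75, exact permutation adjusted p = 0.106).

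Corin and Npr2 followed Npr3. The r of Npr3 and Corin was 0.85 (exact permutation p = 0.00533, adjusted p = 0.016; rho = 0.93, exact p = 0.00223, adjusted p = 0.00837), and 0.88 without the 2 farthest libraries. That of Npr2 and Npr3 was 0.84 (exact permutation p = 0.00861, adjusted p = 0.0161; rho = 0.88, exact p = 0.00724, adjusted p = 0.0155), but 0.53 without its 2 farthest libraries, Male replicate 2 and Female replicate 3, on which it rests. Nppb and Npr2 had r = 0.79 (exact permutation p = 0.00471, adjusted p = 0.016; rho = 0.86, exact p = 0.0107, adjusted p = 0.0201), and 0.81 without the 2 farthest. Without Male replicate 2 both pairs of Npr2 missed the threshold, with r of 0.74 and 0.73 (exact permutation adjusted p = 0.106 each). Nppb and Corin passed by rho (0.88, exact p = 0.00724, adjusted p = 0.0155) but not by r (0.68, exact permutation p = 0.0406, adjusted p = 0.0676), and passed by r without Male replicate 2 (0.87, adjusted p = 0.0184). Npr2 and Corin passed by neither (r = 0.65, exact permutation p = 0.0883, adjusted p = 0.132; rho = 0.76, exact p = 0.0368, adjusted p = 0.0551). Each sex has 4 libraries, too few for a value within a sex, and with deviations from the mean of each sex the r of Nppb and Npr3 was 0.94 and that of Npr1 and Npr3 -0.97.

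In log2 CPM Nppa passed with no other member. Relative to the mean of the cardiomyocyte list it passed with Corin (r = 0.78, exact permutation adjusted p = 0.0452), against r = 0.22 in log2 CPM (exact permutation adjusted p = 0.632). That scale subtracts the same value from both genes of a library, which can raise r by itself. The permutation does not allow for this, so no relation is read from it. The r of Nppa in log2 CPM was -0.41 with Nppb (exact permutation p = 0.294, adjusted p = 0.401; rho = -0.05, exact p = 0.935, adjusted p = 0.935) and between -0.25 and 0.26 with the other 4. Without Male replicate 2 the r of Nppa and Nppb turned to 0.48 (exact permutation adjusted p = 0.331), so the sign of this relation rests on that library. It was 0.12 without Female replicate 1 and Male replicate 2, the 2 libraries farthest from the median of Nppa.

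**Figure D5:**
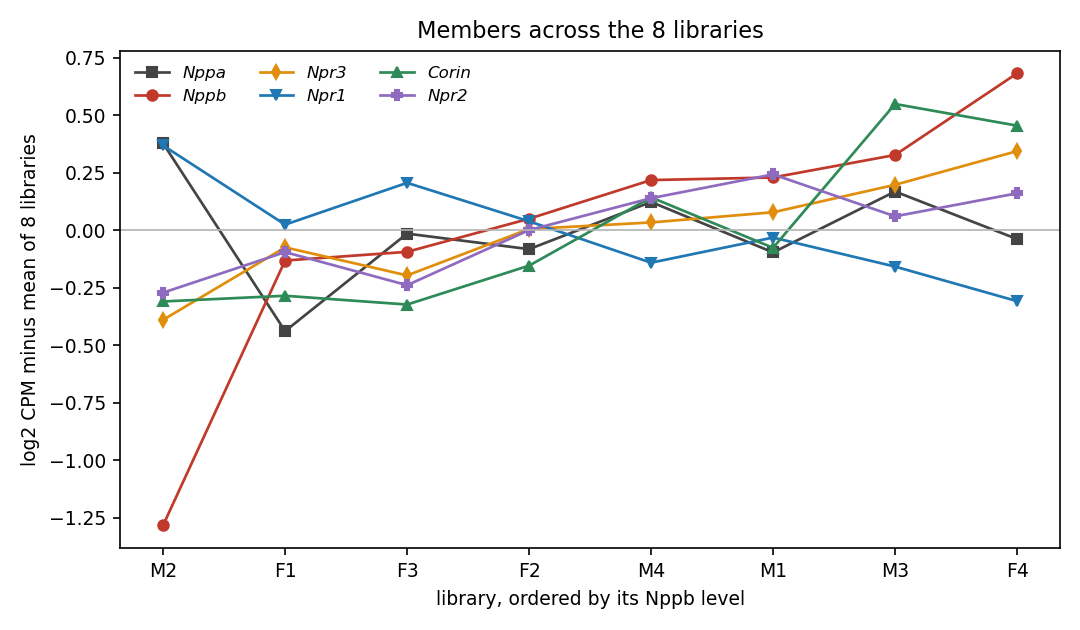
Lines join the log2 CPM of 6 genes, each minus its mean over 8 libraries, with the libraries (F female, M male) ordered by their Nppb level. Npr3, Corin and Npr2 are lower on the left and higher on the right as Nppb is, Npr1 runs the other way, and Nppa is high in Male replicate 2 and low in Female replicate 1.

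These relations ran along the main axis of variation over all genes. With the first principal component, to which all genes tested contribute, the r over 8 libraries was 0.96 for Nppb, 0.94 for Npr3, 0.76 for Npr2, 0.74 for Corin, -0.86 for Npr1 and -0.28 for Nppa. Of all other genes tested, 27.3% had an r over 0.7 with Nppb and 24.8% an r under -0.7. For Npr3 the shares were 26.1% and 24.4%, and for Npr1 they were 21.7% and 23.4%. They were 16.4% and 16.2% for Npr2, and 11.7% and 13.0% for Corin. For Nppa they were 3.69% and 3.98%. So large correlations with Nppb, Npr3 or Npr1 were common among all genes in these libraries, and the covariation of the members was not shown to be particular to them.

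Genes with the pattern most like each member are named as a description, from genes with a mean of at least 1 CPM. For Nppa they were Pcolce, an enhancer of procollagen processing (r = 0.98), Adprhl1, a heart muscle protein (0.97), and the corepressor Aes (0.97), all 3 lowest in Female replicate 1 and highest in Male replicate 2. For Nppb they were the ubiquitin ligase gene Rnf139, the small GTPase gene Rab12 and the kinetochore gene Zwilch, with r of 1.00, 0.99 and 0.99. Those of Npr3 were the small GTPase gene Rhoq, Armc8 and Mon2 (1.00, 0.99 and 0.99), again highest in Female replicate 4 and lowest in Male replicate 2. Npr1 was closest to the DNA repair gene Mgmt and Angptl6 (0.99 each), and to Rps6-ps4 (0.98), a ribosomal pseudogene whose reads may belong to its parent gene. Npr2 was closest to Prr14l, Adamtsl4 and Scube1 (0.99, 0.99 and 0.98), and Corin to the cyclin gene Ccng1, Ripor2 and Retreg1 (0.99, 0.98 and 0.98). Over the 7 libraries without Male replicate 2 these 18 values ran from 0.95 to 1.00.

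Levels were also taken relative to marker lists of the cells that are known to express each gene. Relative to the mean of the cardiomyocyte list, Nppa was at -1.92 ± 0.24 in females and -1.81 ± 0.19 in males on the log2 scale (SD, n = 4 each), a difference of 0.11 (exact permutation p = 0.457, adjusted p = 0.971). Nppb differed by -0.43 (exact permutation p = 0.6) and Corin by -0.03 (exact permutation p = 0.971). Relative to the endocardial and endothelial list, Npr1 differed by -0.03 (exact permutation p = 0.914) and Npr3 by -0.09 (exact permutation p = 0.629). None of these 5 values passed, and the sign of all but that of Nppa changed when some library was left out. Over the 8 libraries the r with the cardiomyocyte list was 0.59 for Nppa, -0.90 for Nppb and -0.60 for Corin, and with the endothelial list 0.56 for Npr3 and -0.48 for Npr1. On the scale relative to the cardiomyocyte list, Nppa in Male replicate 2 was -1.95, within the range of the other libraries (-2.19 to -1.54). Nppb was -6.82 against -5.19 to -4.09. The list mean was itself highest in Male replicate 2 (0.46 above the mean of the 8 libraries). Subtracting it lowers both genes there by itself, so the value of Nppb is not one corrected for cell content.

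Other genes of peptide processing and of cyclic GMP were present. Of 17 on the list, 14 were tested; 7 had higher and 7 lower values in males and none was called, with a median log2 fold change of -0.0023 against 0.011 over all genes tested. The genes with the most reads were Vasp, a target of cyclic GMP dependent kinase in the actin cytoskeleton (138 ± 17.3 CPM over the 4 females, 124 ± 32.6 over the 4 males, SD), and the proprotein convertase Furin, which cuts the precursor of brain natriuretic peptide (126 ± 13.8 and 132 ± 8.80 CPM). Ostn, whose product binds the clearance receptor, had 0 counts in all 8 libraries. Pde2a and Gucy2c, named after their values were seen, had 38 and 25 counts in all and did not pass the filter. Over 0.7 in r with Nppb were 5 of the 14, and 3 were under -0.7, where all genes had 27.3% and 24.8%. Vasp was highest among them (0.98) and was at 77.5 CPM in Male replicate 2, its lowest library.

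Transcription factors that are known to act on Nppa or Nppb did not differ between the sexes by the test. Of 18 factors, all tested, 11 had higher and 7 lower values in males, where 8666 of all 16377 genes tested were higher. None was called, and the median log2 fold change was 0.032. The factors with the most reads were Nkx2-5 (495 ± 58.9 CPM over the 4 females, 519 ± 77.9 over the 4 males, SD) and Tbx20 (296 ± 26.1 and 280 ± 52.8 CPM). The r with Nppb was -0.91 for Nkx2-5 and 0.97 for Tbx20. In all, 8 of the 18 had an r over 0.7 with Nppb and 3 an r under -0.7, where all genes tested had 27.3% and 24.8%.

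Chamber genes were described in the same way. Of 15 genes of the chambers and trabeculae, 12 had higher and 3 lower values in males, where 8666 of all 16377 genes tested were higher. None was called, and the median log2 fold change was 0.11. The atrial light chains had the most reads, with Myl7 at 6301 ± 1347 CPM over the 4 females and 7409 ± 3010 over the 4 males, and Myl4 at 5157 ± 832 and 5579 ± 1572 CPM (SD). With Nppb, 5 of the 15 had an r over 0.7 and 6 under -0.7, against 27.3% and 24.8% of all genes tested. Myl4 was at -0.95 and Myl7 at -0.92.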

How the data were processed

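Per the file headers and the submitters' processing notes, the authors deposited raw counts per gene, and name Subread 1.5.2 with featureCounts, STAR 2.5.2b and Trimmomatic 0.36, on GRCm38 (mm10). The 8 tables of single libraries hold the same counts as the series table. Annotation release, strand setting and treatment of reads over several genes: not given in the sources used here. A second deposited table holds a normalized signal, the counts divided by 1 factor per library, for 16460 genes; it was used as an alternative with a pseudocount of 1. Symbols were matched for 48970 of 49315 identifiers; promoters are from RefSeq (GRCm38.p6), for all 7 members.

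The sexes were compared in edgeR 4.0.16 (R 4.3.3): a robust quasi-likelihood test over the 16377 genes that filterByExpr kept (minimum count 10), with TMM factors, Benjamini-Hochberg adjustment, called below 0.05. Ratios, levels and correlations were tested by exact 2-sided permutation in Python 3.11.15 with numpy 2.4.6. Alternatives were DESeq2 1.42.0, limma 3.58.1 (voom, and on log2 of the signal), RLE factors, library size alone, other filters, the replicate number as a block and leaving out each library. Added after seeing the data were leaving out Female replicate 1 and Male replicate 2 together, and unshared exon length.

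The members and lists (cardiomyocyte, endocardial, epicardial, erythroid, foregut, hepatic and neural crest markers, processing and cyclic GMP, transcription factors, chamber genes) were chosen with earlier results of these data known. Named were all members, of each described list the called genes, the 2 with the most reads and those with 0 counts, the 3 genes most like each member (r of log2 CPM, prior count 2, no predicted names), and genes overlapping or next to members. Some items are not reported here.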

Additional observations from a re-analysis of the deposited data

Results flagged for a closer look

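Of 24 groups examined, each 1 value in the 4 libraries of 1 sex, 7 had 1 library apart from the other 3. The rule was Dixon's criterion, which chance alone meets in about 1 in 20 groups. Nppb was lowest in Male replicate 2, with a gap to the next library that was 0.932 of the range of the males in log2 CPM. The log2 ratio of Nppa to Nppb was highest in that library (0.884 of the range), Nppb relative to the cardiomyocyte list was lowest in it (0.835), and Npr1 relative to the endocardial and endothelial list was highest in it (0.839). Among females, Nppa was lowest in Female replicate 1 (0.84 of the range). Relative to the cardiomyocyte list, Nppb (0.877) and Corin (0.839) were highest in Female replicate 4. The 7 values are not independent, since they share genes and libraries.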

How the results depend on the processing

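No member was called between the sexes in any of 17 alternatives, in which 5 to 9 genes were called over the transcriptome against 6. The sexes' ratio of Nppa to Nppb did not pass in any alternative, and 4 of 5 steps in the order of levels passed in each, except in CPM without length, where 5 passed: Nppb and Npr3 in the other direction, and Corin above Npr2 (0.33) in addition. Leaving out a library gave 6 to 8 correlated pairs of members, against 8, library size alone gave 10, deviations from the mean of each sex 9 and values relative to the cardiomyocyte list 7. The replicate numbers gave no pairing: same-numbered libraries had correlations of deviations from -0.42 to -0.0062, and with the replicate number as a block 5 genes and 0 members were called and the ratio differed by 0.54 (exact permutation p = 0.5). With only 4 pairs this block test of the ratio could not have passed at 0.05. None of the 8 libraries correlated best with the library of its own number.

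Signs turned only in values that did not pass, apart from Npr1 correlations and 1 step of the order; the cause was not tested. Log2 fold changes that turned were Nppb 0.088 and 0.056, Npr3 0.067 and 0.082 and Npr1 -0.11 and -0.063, without Male replicate 2 and Female replicate 4 respectively. Npr1 was also at -0.016 with library size alone, Corin at -0.034 without Male replicate 3, and Npr1 at -0.099 and Npr3 at 0.029 without Female replicate 1 and Male replicate 2. Relative to its cell type, Corin was at 0.22 without Male replicate 2 and 0.22 without Female replicate 4, Nppb at 0.076 and Npr3 at 0.026 without Male replicate 2, and Npr1 at 0.0091, 0.053, 0.029 and 0.02 without Female replicates 1 and 3 and Male replicates 3 and 4. The r of Nppa turned without Male replicate 2, to 0.48 with Nppb, -0.34 with Npr1, 0.29 with Npr2 and 0.35 with Npr3. Relative to the cardiomyocyte list these were 0.49, -0.27, 0.46 and 0.55, with 0.78 for Corin, and with library size alone those with Npr1, Npr2 and Npr3 were -0.27, 0.057 and 0.051. With Corin it was -0.047 without Female replicate 1. On the scale relative to the cardiomyocyte list, where 1 value is subtracted from all genes of a library, the negative r of Npr1 was lost: 0.16 with Nppb, 0.051 with Npr2, 0.15 with Npr3 and -0.056 with Corin. Nppb was below Npr3 in CPM without length (-0.26). Over the libraries left out in turn, the other ends of the ranges were 0.36 for Corin, -0.30 for Nppb and 0.10 for Npr1 in log2 fold change, -0.67 for Nppb, -0.16 for Npr1 and -0.16 for Npr3 relative to the cell type, and r of Nppa of 0.63 with Corin, -0.72 with Nppb, 0.44 with Npr1, -0.52 with Npr2 and -0.53 with Npr3. Nppc, with 8 counts, is limited by depth.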
